A study of Mus musculus with 8 samples.

Results

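The genes described here are *Nrg1*, the 4 ErbB receptors (*Egfr*, *Erbb2*, *Erbb3* and *Erbb4*) and 3 other ligands of the EGF family (*Hbegf*, *Nrg2* and *Nrg4*). They were chosen by name, and all 8 were found among the 53465 genes of the table and passed the filter on low counts, which kept 14451 genes. RNA-seq of polyadenylated RNA was made from heart ventricles of mouse embryos at E9.5, with 4 wild-type samples (WT) and 4 samples of the genotype *Nrg-1flox;Tie2-Cre* (KO), in which Cre recombinase removes floxed *Nrg1*. The Tie2 promoter, that of the *Tek* gene, drives Cre in endothelial cells, including the endocardium, and in the blood cells that arise from them, so *Nrg1* in other cell types is not a target. The floxed exons, the number of embryos behind each sample, and whether WT embryos carried the floxed allele or Cre are not given in the sources used here.

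Neuregulins and the other members of the EGF family are ligands that carry an EGF-like domain and bind ErbB receptor tyrosine kinases. In the embryonic heart, the endocardium makes NRG1, which binds ERBB4 on cardiomyocytes, and ERBB4 signals together with ERBB2, a receptor that binds no ligand of its own. This exchange is required for the ventricular trabeculae. ERBB3 also binds neuregulins but has little kinase activity of its own, and it is known from the cushion mesenchyme and the neural crest. EGFR binds EGF, TGFA, HB-EGF and their relatives, and HB-EGF also binds ERBB4.

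The EGF-like domain, held together by disulfide bonds between 6 cysteines, is what the ligands share and what binds the receptor. The coding stretches of this domain in *Nrg1* and *Nrg4* are shown because NRG1 and NRG4 both bind ERBB4 through it. They are spliced stretches of the transcript with the longest coding sequence (GENCODE M21, GRCm38, minus strand), from the first to the last cysteine, with the cysteine codons in capitals. That of *Nrg1* lies in exons 2 and 3 of 9, within chr8:31837698-31849398, and that of *Nrg4* in exons 3 and 4 of 8, within chr9:55242177-55280969.

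*Nrg1*: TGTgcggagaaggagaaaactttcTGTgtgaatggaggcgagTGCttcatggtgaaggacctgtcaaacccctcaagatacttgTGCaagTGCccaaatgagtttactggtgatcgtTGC
*Nrg4*: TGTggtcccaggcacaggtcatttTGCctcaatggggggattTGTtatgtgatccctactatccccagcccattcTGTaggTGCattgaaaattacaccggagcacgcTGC

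The stretch is 120 bases in *Nrg1* and 111 bases in *Nrg4*. Of the 18 annotated *Nrg1* transcripts, 9 hold the whole printed stretch and 16 hold its first 60 bases. The deposited count of *Nrg1* is a sum over all 18, so it does not separate forms with this domain from forms without it, and a transcript that only lacks a floxed exon would still be counted.

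Total counts ranged from 11852372 to 14360323 in WT and from 12430368 to 14223860 in KO. As a check of the tissue, 14 cardiomyocyte genes, 0 of them at 0, summed to 40300 to 42500 CPM (counts scaled to a common library size after TMM normalization) in WT and 37600 to 41700 CPM in KO. The mean log2 CPM of these genes was 10.64 in KO replicate 1 and 10.87 to 10.93 in the other samples. Across all genes, the quasi-likelihood test of edgeR, adjusted by Benjamini-Hochberg, called 8.62% at FDR under 0.05, 5.11% higher and 3.5% lower in KO. All adjusted p-values below come from that test. Hemoglobin genes took 0.722% of counts on average in WT and 3.97% in KO, with the highest share, 6.26%, in KO replicate 1. That sample stood apart from the other KO samples across all genes, with a chi-square per degree of freedom of 30.7 to 52.7 against them, where pairs of WT samples gave 3.77 to 6.14. KO replicate 2 gave up to 14.5 against KO replicates 3 and 4, which gave 4.67 against each other. KO replicate 1 also lay apart in several of the genes described here, and values without it are given beside those results. In whole tissue, fewer cells of a type and less RNA per cell cannot be told apart.

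To compare genes with each other, the WT levels were divided by length (CPM per kilobase of the gene's joined exons). *Erbb2* had the highest level, 33.5 ± 2.81 CPM per kilobase (SD, n = 4), followed by *Erbb4* at 5.93 ± 0.42 (SD, n = 4). *Hbegf* at 3.10 ± 0.28 and *Erbb3* at 2.61 ± 0.42 (SD, n = 4) overlapped between WT samples. *Nrg1* followed at 1.04 ± 0.12, *Egfr* at 0.560 ± 0.102, *Nrg2* at 0.333 ± 0.0669 and *Nrg4* at 0.145 ± 0.0493 (SD, n = 4), each without overlap with the next. Thus the receptor that binds no ligand was the most abundant of the 8 transcripts, and the other 3 receptors together made up less of the receptor level than *Erbb2* alone, whose share was 78.6% ± 0.781 (SD, n = 4). The place of *Nrg1* depends on the length used, a check added after seeing the data. With the length of the transcript with the longest coding sequence, *Nrg1* was at 4.38 ± 0.51 CPM per kilobase (SD, n = 4), above *Erbb3*, *Hbegf* reached 6.30 ± 0.56 and overlapped with *Erbb4*, and *Egfr*, *Nrg4* and *Nrg2* overlapped in that order.

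**Figure D1:**
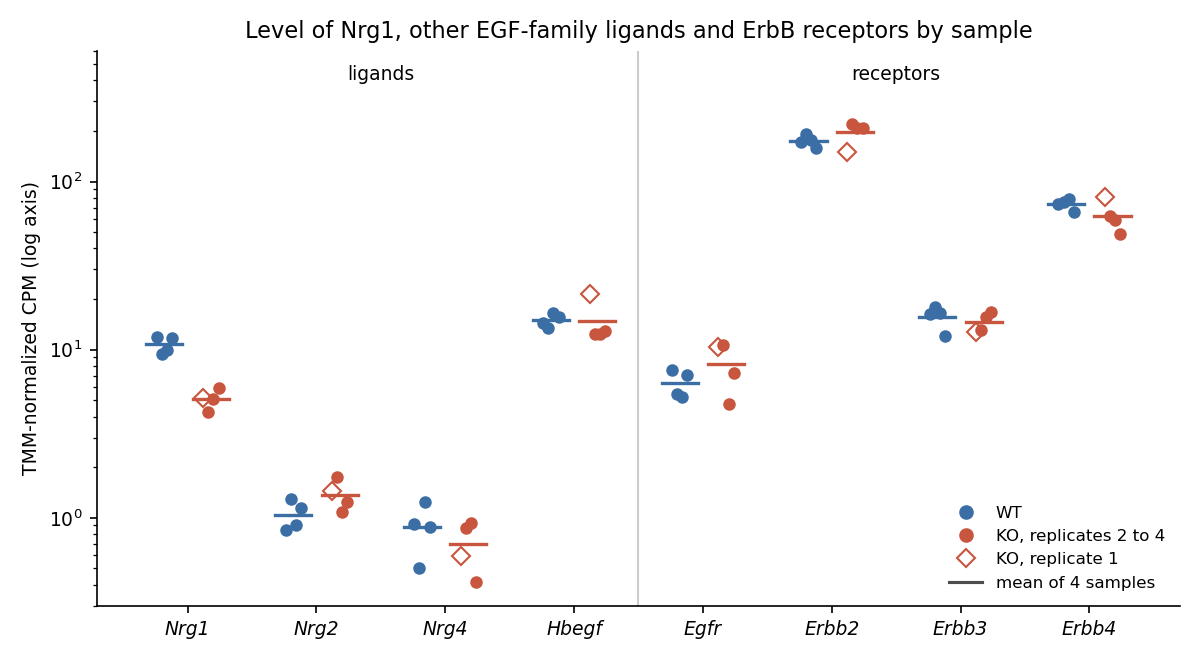
TMM-normalized CPM (log axis) of 4 ligands and 4 receptors in each WT (blue) and KO (red) sample, with KO replicate 1 as an open diamond and a line at the mean of 4 samples. *Nrg1* is the gene of the 8 whose WT and KO values do not overlap, and KO replicate 1 lies apart from the other KO samples in *Hbegf*, *Erbb2* and *Erbb4*.

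The first question was how much *Nrg1* was left in KO ventricles, which also checks the labels. *Nrg1* (ENSMUSG00000062991, chr8:31814551-32884029, minus strand) stood at 11.9, 9.38, 9.94 and 11.7 CPM in WT replicates 1 to 4 and at 5.17, 4.27, 5.11 and 5.94 CPM in KO replicates 1 to 4. Every KO sample lay below every WT sample, and KO replicate 1 was in the middle of its group. The mean was 10.7 ± 1.26 CPM in WT and 5.12 ± 0.68 CPM in KO (SD, n = 4), so that 0.477 of the WT level remained (log2 fold change -1.07, 95% confidence interval -1.38 to -0.76, adjusted p = 0.00268). The counts behind these values, 121 to 173 in WT and 59 to 72 in KO, have a counting error of 8.3% and 12.3%, against an observed spread of 11.7% and 13.3%. Which cells carry the remaining *Nrg1* RNA was not measured in whole ventricles.

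*Nrg1* was also set against genes of the cells that Tie2-Cre acts on. The 14 endothelial and endocardial genes summed to 1130 to 1220 CPM in WT and 1000 to 1100 CPM in KO, and 1 of 14 passed the test, *Tek*, the gene of the Tie2 receptor, which was lower (log2 fold change -0.34, adjusted p = 0.031). *Tek* passed in 2 of the 8 fits that each left out a sample, those without KO replicate 1 or KO replicate 2 (adjusted p up to 0.107), and 3 of the 14 genes were called lower without KO replicate 1, where 7.89% of all genes were. Relative to the mean log2 CPM of these genes, *Nrg1* was at -2.41 ± 0.17 in WT and -3.33 ± 0.22 in KO (SD, n = 4). The difference of -0.92, a ratio of 0.527, had an exact two-sided permutation p of 0.0286, the smallest that 4 against 4 samples can give. With the median of the list in place of the mean the difference was -1.10. On the scale of all counts the log2 fold change of *Nrg1* was -1.07. The part of these cells in the fall of *Nrg1* was not tested.

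Among the other ligands, the question was whether the level of another family member rose where *Nrg1* fell. None of *Hbegf*, *Nrg2* and *Nrg4* passed the test. *Hbegf*, the gene of heparin-binding EGF-like growth factor (chr18:36504927-36515805), was at 14.4, 13.5, 16.5 and 15.6 CPM in WT replicates 1 to 4 and at 21.4, 12.4, 12.4 and 12.9 CPM in KO replicates 1 to 4. Thus KO replicate 1 was above all WT samples and the other 3 were below all of them. That sample was set aside for this, so nothing is read from the value without it. The log2 fold change was -0.02 (95% confidence interval -0.42 to 0.38, adjusted p = 0.954) and, without KO replicate 1, -0.25 (95% confidence interval -0.46 to -0.04, adjusted p = 0.0996).

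*Nrg2* and *Nrg4* were near the limit of detection. *Nrg2*, a neuregulin that binds ERBB3 and ERBB4 (chr18:36017652-36197380), had 11, 18, 11 and 17 counts in WT and 17, 24, 15 and 15 counts in KO, replicates 1 to 4. These counts overlapped, and the log2 fold change was 0.38 (95% confidence interval -0.18 to 0.95, adjusted p = 0.385). *Nrg4*, a neuregulin that binds ERBB4 (chr9:55220222-55326844), had 12, 7, 15 and 13 counts in WT and 7, 12, 13 and 5 counts in KO. Its values overlapped as well, with a log2 fold change of -0.30 (95% confidence interval -1.10 to 0.51, adjusted p = 0.659). Counting error alone was 23.7% to 26.5% for *Nrg2* and 29.2% to 32.9% for *Nrg4*, so that smaller changes of these genes were not detectable at this depth.

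Of 7 further EGF-family ligands, *Egf* and *Tgfa* passed the filter and neither passed the test. *Tgfa*, a ligand of EGFR, was at 7.92 ± 1.43 CPM in WT and 9.36 ± 0.584 CPM in KO (SD, n = 4), with 3 KO samples above all WT samples (log2 fold change 0.24, adjusted p = 0.34). *Egf* was at 1.54 ± 0.34 CPM in WT and 1.74 ± 0.41 CPM in KO (SD, n = 4; log2 fold change 0.17, adjusted p = 0.722). *Areg*, *Ereg*, *Btc* and *Epgn* had 0 to 6 counts in a sample and *Nrg3* had 1 count in WT replicate 1 and 0 in the other samples. These 5 did not pass the filter, and 0 of the 7 further ligands were called when no filter was used. Over the 11 ligands, with levels per kilobase of joined exons, *Nrg1* took 14.6% to 18.8% of the ligand level in WT samples and 6.44% to 9.97% in KO samples, while *Hbegf* took 45.7% to 53.6% and 45.7% to 57.0%. With the longest coding transcript as the length the share of *Nrg1* was 28.2% to 34.2% in WT and 13.9% to 21.5% in KO. With either length the groups did not overlap.

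**Figure D2:**
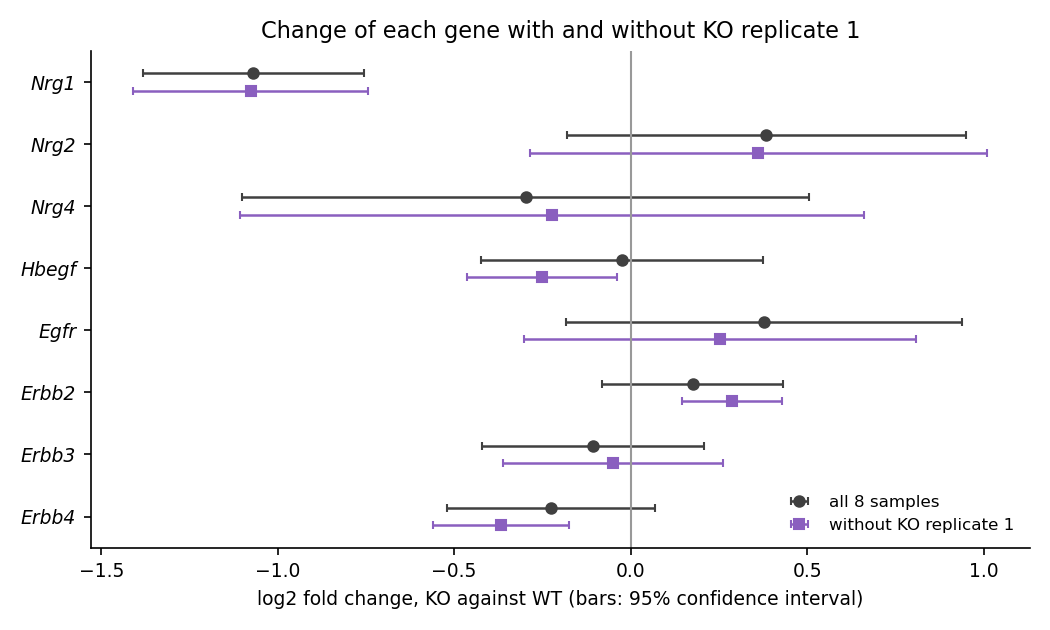
Log2 fold change of KO against WT (x axis) for each gene, with the 95% confidence interval from edgeR's quasi-likelihood test, over all 8 samples (black) and without KO replicate 1 (purple). The interval of *Nrg1* lies below 0 in both. Without KO replicate 1 that of *Erbb2* lies above 0 and those of *Erbb4* and *Hbegf* lie below 0. That sample was set aside for its place in those genes.

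The receptors were examined next. With all 8 samples none of the 4 passed the test, and the unadjusted p ranged from 0.117 for *Erbb4* to 0.467 for *Erbb3*. *Erbb2* (chr11:98412470-98437716), the partner receptor, was at 172, 193, 177 and 157 CPM in WT and at 150, 220, 209 and 209 CPM in KO, replicates 1 to 4. KO replicate 1 was below all WT samples and the other 3 KO samples were above them. The log2 fold change was 0.18 (95% confidence interval -0.08 to 0.43, adjusted p = 0.383). Without KO replicate 1 it was 0.29 (95% confidence interval 0.14 to 0.43, adjusted p = 0.0138). That sample was set aside for its place in this gene, so nothing is read from the value without it.

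*Erbb4* (chr1:68032186-69108059), the receptor for NRG1 on cardiomyocytes, went the other way. It was at 73.2, 75.1, 78.7 and 66.2 CPM in WT replicates 1 to 4 and at 80.5, 62.5, 58.9 and 48.6 CPM in KO replicates 1 to 4. Here KO replicate 1 was above all WT samples and the other 3 were below all of them. The log2 fold change was -0.23 (95% confidence interval -0.52 to 0.07, adjusted p = 0.321) over all samples and -0.37 (95% confidence interval -0.56 to -0.17, adjusted p = 0.018) without KO replicate 1. As for *Erbb2*, KO replicate 1 was set aside for its place in this gene, so nothing is read from the value without it. The other 7 fits that each left out another sample called neither *Erbb2* nor *Erbb4*.

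Both receptors were set against the 14 cardiomyocyte genes, of which edgeR called 0 with all samples (2 at an unadjusted p under 0.05, *Myh6* and *Ttn*) and DESeq2 called 2. In the fit without KO replicate 1 edgeR called 3 of the 14 (21.4%), near the 17.2% of all genes called there. *Erbb2* relative to the mean of these genes was higher by 0.22 on the log2 scale in KO (exact permutation p = 0.0571), and *Erbb4* relative to them differed by -0.19 (exact permutation p = 0.429). On this scale *Erbb2* in KO replicate 1 was at -3.405, within the WT range of -3.567 to -3.337. Without KO replicate 1 the differences were 0.28 and -0.38, each with an exact permutation p of 0.0286. That is the smallest p that 3 against 4 samples allow. Leaving out each of the other 7 samples gave an exact permutation p of 0.0571 to 0.114 for *Erbb2* and of at least 0.429 for *Erbb4*, and KO replicate 1 was singled out after it was seen to lie apart in these genes. The ratio of *Erbb2* to *Erbb4* CPM, computed after their values were seen and so given without a test, was 2.25 to 2.57 in the WT samples, 1.87 in KO replicate 1 and 3.52, 3.55 and 4.29 in KO replicates 2, 3 and 4. The WT samples were close together, whereas the KO samples lay on both sides of them.

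**Figure D3:**
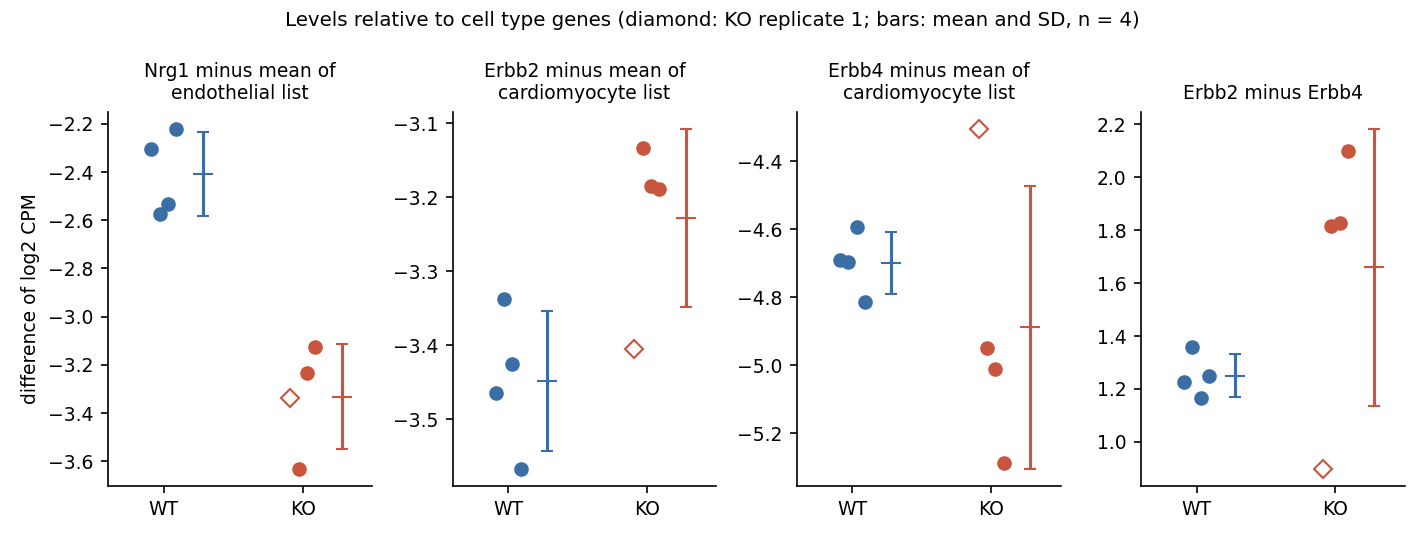
Differences of log2 CPM (y axis) in each WT (blue) and KO (red) sample, for *Nrg1* against the mean of the endothelial and endocardial list, for *Erbb2* and *Erbb4* against the mean of the cardiomyocyte list and for *Erbb2* against *Erbb4*, with mean and SD (n = 4) beside the points. KO replicate 1 (diamond) lies with its group for *Nrg1* and on the opposite side of WT from the other KO samples for *Erbb4* and for *Erbb2* against *Erbb4*.

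*Erbb3* (chr10:128567523-128589652) was at 16.2, 17.9, 16.6 and 12.1 CPM in WT and at 12.8, 13.03, 15.6 and 16.8 CPM in KO, replicates 1 to 4. All KO samples lay within the range of WT (log2 fold change -0.11, 95% confidence interval -0.42 to 0.21, adjusted p = 0.689). Of the cell types in which *Erbb3* is known, the cushion mesenchyme list summed to 489 to 496 CPM in WT and 350 to 424 CPM in KO, with 1 of 8 genes passing the test, *Tbx20*, which is also a cardiomyocyte factor and was lower. It was not called when WT replicate 1, 3 or 4 was left out (adjusted p up to 0.0591). Most of the sum was *Tbx20* itself, at 378 ± 8.39 CPM in WT and 304 ± 25.01 CPM in KO (SD, n = 4). The neural crest and glia list summed to 18.6 to 24.8 CPM in WT and 19.3 to 25.0 CPM in KO. The part of these cell types in the level of *Erbb3* was not tested.

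*Egfr* (chr11:16752203-16918158) was at 7.56, 5.44, 5.26 and 7.10 CPM in WT and at 10.3, 10.7, 4.75 and 7.25 CPM in KO, replicates 1 to 4. Replicates 1 and 2 of KO were above all WT samples and replicate 3 was below them. The log2 fold change was 0.38 (95% confidence interval -0.18 to 0.94, adjusted p = 0.389). With 1 sample left out it ranged from 0.23 (without KO replicate 2) to 0.57 (without KO replicate 3). No such fit called *Egfr*. Epicardial genes, of which *Wt1* and *Tbx18* rose (2 of 8 tested), summed to 203 to 268 CPM in WT and 303 to 505 CPM in KO. *Tbx18* was not called when any 1 WT sample was left out (adjusted p up to 0.0978), and 4 of the 8 genes were called higher without KO replicate 1, where 9.35% of all genes were called higher (5.11% with all samples). In KO replicate 1, which had the highest sum, 289 of the 505 CPM came from *Krt19*, and *Tcf21* and *Upk3b* had their lowest KO values there, 12.1 and 47.1 CPM. The part of these cells in the level of *Egfr* was not tested.

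In all, 1 of the 8 genes (12.5%) was called, *Nrg1*, against 8.62% of all genes, and the same gene was the one of the 8 whose groups did not overlap, against 19.0% of all genes. Without KO replicate 1, *Nrg1*, *Erbb2* and *Erbb4* were called (37.5%), where 17.2% of all genes were called, and these genes and *Hbegf* did not overlap between groups (4 of 8), against 29.0% of all genes. Since KO replicate 1 was set aside for lying on the other side of WT in *Erbb2*, *Erbb4* and *Hbegf*, the separation of these 3 genes without it follows from that choice, and nothing is read from the shares without it.

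The genes on either side of the receptors were described by lists. Together the 7 lists held 109 genes, of which 108 were tested and 13 (12.0%) were called, 2 higher and 11 lower in KO, where 8.62% of all genes were called, 5.11% higher and 3.5% lower. With 1 sample left out, 6 to 33 genes of the lists and 509 to 2523 of all genes were called. Among 18 genes of ligand processing, which cut the membrane-bound ligands free, the median log2 fold change was -0.10 and 3 were called. *Rhbdf2* and *Rhbdf1*, which encode the iRhom proteins that bring the sheddase ADAM17 to the cell surface, rose. *Rhbdf2* was at 9.40, 10.5, 9.78 and 8.38 CPM in WT and at 21.6, 14.6, 16.8 and 18.2 CPM in KO, replicates 1 to 4 (log2 fold change 0.90, adjusted p = 0.00371). *Rhbdf1* was at 34.1 to 36.2 CPM in WT and 45.1 to 56.3 CPM in KO (log2 fold change 0.53, adjusted p = 0.00359). For both genes, every KO sample was above every WT sample, and both passed in all 8 fits that left out a sample.

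*Adam17* itself was not called (log2 fold change -0.08, adjusted p = 0.399), nor was *Adam10* (0.01, adjusted p = 0.934) or *Adam19* (-0.17, adjusted p = 0.321), a sheddase known for neuregulin. The third gene called in this list was *Psen2*, a subunit of gamma-secretase, at 13.3 to 15.5 CPM in WT and 9.14 to 11.04 CPM in KO (log2 fold change -0.49, adjusted p = 0.0195). It was not called when WT replicate 1, 3 or 4 or KO replicate 3 was left out (adjusted p up to 0.0666). The 10 erythroid genes were all called higher, with summed levels of 6070 to 7320 CPM in WT and 17500 to 62200 CPM in KO, and *Csf1r*, a macrophage gene, was the one called of 2 tested in its list (log2 fold change 1.08, adjusted p = 0.00657). Of 6 megakaryocyte and platelet genes 2 were called higher, where 5.11% of all genes were. Their sums were 29.6 to 46.9 CPM in WT and 51.0 to 168 CPM in KO. None was called when any WT sample, KO replicate 3 or KO replicate 4 was left out. The part of blood cells in the rise of *Rhbdf1* and *Rhbdf2* was not tested.

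Among 8 cofactors that hold ligands at the cell surface, such as syndecans, *Cd9* and *Cd44*, edgeR and DESeq2 called 0, 1 had an unadjusted p under 0.05 and the median was -0.04. With upper-quartile scaling 1 was called, and without KO replicate 1, 2 were called, all lower. The gene with the low unadjusted p was *Cd44* (log2 fold change -0.20, adjusted p = 0.0732). Of 15 genes that attenuate ErbB receptors, 14 were tested and 2 were called, both ubiquitin ligases and both lower: *Nedd4* (log2 fold change -0.24, adjusted p = 0.0153) and *Cbl* (-0.25, adjusted p = 0.0357). *Cbl* passed in 1 of the 8 fits that each left out a sample, the one without KO replicate 1, and *Nedd4* in 5, with losses without WT replicate 1, WT replicate 3 or KO replicate 4. Of the 14, 5 were called without KO replicate 1, all lower, where 7.89% of all genes were called lower, and without WT replicate 1, WT replicate 3 or KO replicate 4, 0 were called. *Errfi1*, a feedback inhibitor of ErbB kinases, was at -0.18 (adjusted p = 0.616), *Lrig1*, which lowers ErbB receptor levels, at -0.26 (adjusted p = 0.102), and *Rnf41*, a ubiquitin ligase for ERBB3, at -0.16 (adjusted p = 0.264), and none of these was called.

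For the intracellular relays the number of calls depended on the tool and on KO replicate 1. Of 20 Ras-MAPK genes edgeR and DESeq2 called 0, with a median within 0.01 of 0 on the log2 scale. In edgeR 7 had an unadjusted p under 0.05. Of these, *Grb2*, *Sos1*, *Ptpn11* and *Rasa1* were lower and *Shc1*, *Map2k2* and *Ksr1* were higher. The share of all genes at that cut was not computed, so nothing is read from this number. Of 18 PI3K-Akt genes 1 was called, *Pik3r3*, a regulatory subunit of PI3K (log2 fold change -0.61, adjusted p = 0.0458), which passed in 2 of the 8 fits that each left out a sample, those without KO replicate 1 or KO replicate 2. Of 18 other effectors 1 was called, *Yes1*, a Src-family kinase (-0.39, adjusted p = 0.0213), which passed in 3 of the 8 fits, those without WT replicate 3, KO replicate 1 or KO replicate 2. DESeq2, which called 12.8% of all genes it gave an adjusted p, called 4 of the PI3K-Akt genes, 3 of them higher, and 5 of the other effectors, 2 of them higher. Without KO replicate 1, edgeR called 4 Ras-MAPK genes (2 higher), 6 PI3K-Akt genes (4 higher) and 3 other effectors (0 higher), where 17.2% of all genes were called. Without KO replicate 2 it called 0, 2 and 3, and in the other 6 fits that each left out a sample it called 0 or 1 in each list.

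The list of genes induced by ERK signalling had the largest share of calls among the 7 lists. Of 12 genes 6 were called, all lower in KO, where 3.5% of all genes were called lower. The median was -0.38, where that of all genes tested was -0.0014. *Spry4*, a feedback inhibitor of Ras-MAPK signalling, had 234, 201, 251 and 244 counts in WT and 118, 86, 104 and 68 counts in KO, replicates 1 to 4, a mean of 17.4 ± 2.61 CPM and 7.33 ± 1.95 CPM (SD, n = 4; log2 fold change -1.24, adjusted p = 0.00375). The ETS factors *Etv4* (-0.91, adjusted p = 0.00575), *Etv5* (-0.78, adjusted p = 0.0018) and *Etv1* (-0.62, adjusted p = 0.0383) were lower in every KO sample than in any WT sample. *Spry4*, *Etv4* and *Etv5* passed in all 8 fits that each left out a sample, and *Etv1* in 1, that without KO replicate 1. *Dusp6*, the ERK phosphatase, was at -0.34 (adjusted p = 0.101) and *Spry1* at 0.18 (adjusted p = 0.552). Without KO replicate 1, 9 of the 12 genes were called, all lower, where 7.89% of all genes were called lower. In each of the other 7 fits that left out a sample 4 of 12 were called, all lower. Of all genes, 174 to 476 were called lower in those fits. The list was written with earlier results of these samples known, so its direction is not independent evidence.

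**Figure D4:**
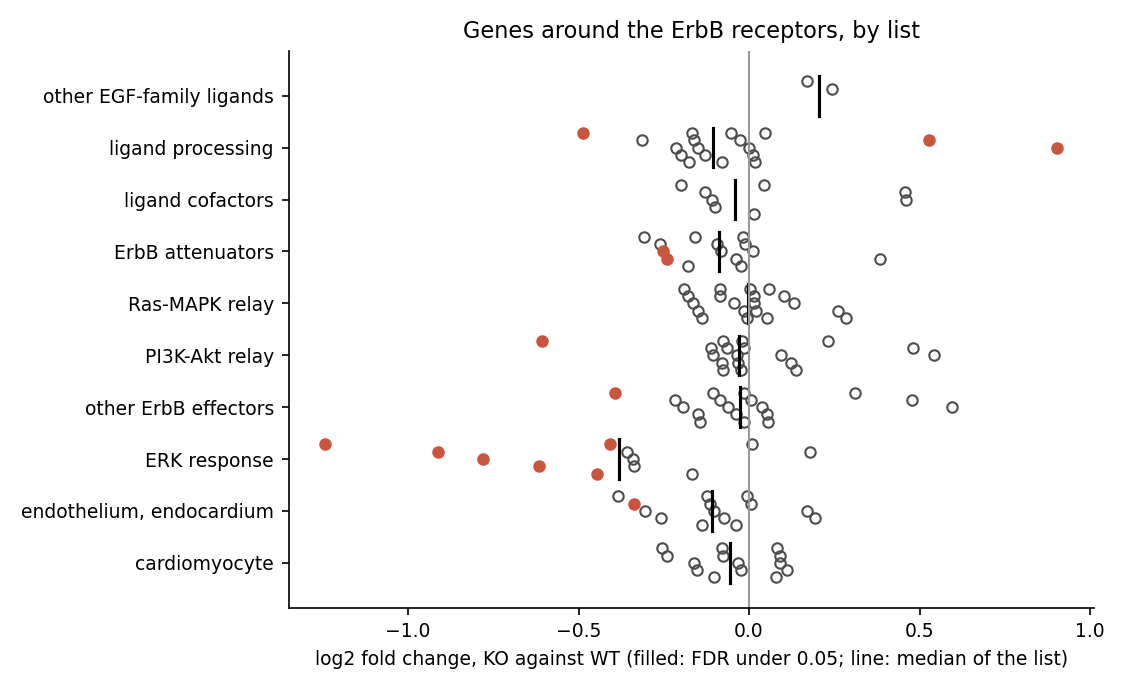
Log2 fold change of KO against WT (x axis) of each tested gene in the lists of ligands, pathway genes and the 2 cell types that send and receive NRG1 (rows), filled where FDR is under 0.05, with a line at the median of each list. The filled points of the ERK response list all lie below 0, and in the ligand processing list *Rhbdf1* and *Rhbdf2* lie to the right.

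Genes whose log2 CPM followed that of each gene over the 8 samples were named by their Pearson correlation, as a description, since all points share the split by genotype. For *Nrg1* the nearest were *AI506816* (r = 0.978), *Wnt4*, a Wnt ligand (r = 0.972), *Mycbp* (r = 0.964), *Hsd17b11* (r = 0.963) and *Entpd1*, an ectonucleotidase (r = 0.963). *Wnt4* was lower in KO by about as much as *Nrg1*, at -1.10 on the log2 scale (adjusted p = 0.0021), and *Mycbp* was not called (-0.17, adjusted p = 0.0814). The genes nearest to the receptors and to *Hbegf* were *Cdk16* for *Erbb2* (r = 0.976), *Rock2* for *Erbb4* (r = 0.976), *Hebp2* for *Erbb3* (r = 0.917), *Pmp22* for *Egfr* (r = 0.96) and *Ikbkg* for *Hbegf* (r = 0.985), none of which was called. The second nearest were *Apmap* (r = 0.97), *Cggbp1* (r = 0.975), *Tango6* (r = 0.911), *Slc26a11* (r = 0.943) and *Rsrc2* (r = 0.979), in the same order. For *Nrg2* the gene given is *Coro2b* (r = 0.889), and for *Nrg4* the nearest were *Osgep* (r = 0.946) and *Kank4* (r = 0.945), at counts where sampling sets much of the pattern.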

How the data were processed

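The authors deposited 1 table of expected counts per gene, estimated with RSEM 1.3.1 after trimming with cutadapt and, per the labels, on GRCm38, from 60-base single reads. The file carries the Ensembl release 91, and the aligner and the use of strand are not given in the sources used here. RSEM shares reads that match several genes. These estimates were rounded to integers before testing, symbols were given to 53274 of 53465 genes, and 197 of 197 list genes were found, 1 of them by an older symbol. Differential expression was tested across all genes with edgeR 4.0.16 in R 4.3.3 (TMM, filterByExpr, quasi-likelihood test, Benjamini-Hochberg adjustment, FDR under 0.05), with standard errors from the fold change and the F statistic. Relative levels used log2 CPM with a prior count of 2 and exact permutation tests over samples. Lengths, positions and sequences come from GENCODE M21 (GRCm38), and Python 3.11.15 was used. The labels do not say that samples of a group came from separate litters, so p-values measure the spread between these samples, which may be technical.

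The genes described and the lists were chosen with earlier results of these data known. The genes named were the 8 chosen genes, the other EGF-family ligands, up to 4 called genes with the largest changes in each list, and the 5 genes most correlated with *Nrg1* and 2 with each other gene (mean CPM of at least 5), of which 1 is not reported here. *Adam17*, *Adam10*, *Adam19*, *Cd44*, *Errfi1*, *Lrig1*, *Rnf41*, *Dusp6*, *Spry1*, the Ras-MAPK genes and the cell type genes were named after their values were seen. No 2 replicates of a group were alike within sampling noise (chi-square per degree of freedom 3.77 to 6.14 between WT samples and up to 52.7 between KO samples). The test was tried on simulated data for 14451 genes, of which 200 were changed. It recovered 74% of genes changed by 1 on the log2 scale and 97% of those changed by 2, with 13 false calls. The simulation gave both groups the same spread per gene and held no outlying sample. These rates may therefore not hold for these data. The same comparison was also run with DESeq2 1.42.0, voom in limma 3.58.1 and a likelihood ratio test in edgeR, with upper-quartile scaling, with no filter or at least 1 CPM in 4 samples, without hemoglobin and mitochondrial genes, with a block for replicate numbers, and leaving out each replicate.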

Additional observations from a re-analysis of the deposited data

Results flagged for a closer look

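In 3 of 46 groups of 4 samples examined, 1 sample lay far from the other 3, where chance gives about 2.3 (1 in 20), and in all 3 it was KO replicate 1. Its distance from the closest of the other 3, divided by the range of all 4, was 0.86 for *Erbb2*, where it was lowest, 0.931 for *Hbegf*, where it was highest, and 0.848 for *Pik3r3*, where it was lowest. The hemoglobin share of counts was also highest in that sample.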

How the results depend on the processing

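*Nrg1* passed FDR 0.05 in all 8 alternatives, between -1.09 and -1.06, and in all 8 fits that each left out a replicate, between -1.15 and -0.98. Of 303 comparisons of 19 named genes with their main result, 259 kept direction and side of the threshold, 38 kept the direction but no longer passed, 2 newly passed (*Erbb2* and *Erbb4* without KO replicate 1) and 4 changed sign. The 4 were *Hbegf*, at 0.0258 without WT replicate 3 and 0.0601, 0.0506 and 0.0356 without KO replicates 2, 3 and 4, over a range that reached -0.2523 without KO replicate 1. With each replicate left out, 509 to 2523 genes were called, 335 to 1368 higher and 174 to 1155 lower, and 6 to 33 genes of the pathway lists, the highest number each time without KO replicate 1. Leaving out any sample other than KO replicate 2 moved the count of genes called by over 1.5 times. The other tools, filters and scaling called 1157 to 1780 genes. *Erbb2* relative to cardiomyocyte genes ranged from 0.181 to 0.28 and *Erbb4* from -0.384 to -0.0556. With the median of the list the value for *Erbb2* was 0.244 (exact permutation p = 0.0286). DESeq2 called 21 pathway genes. The cause was not tested.

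With the replicate number as a replicate block, 616 genes were called, 398 higher and 218 lower, with 7 pathway genes, 4 of them in the ERK response list. The paired exact test of *Nrg1* relative to endothelial genes (-0.925) gave p = 0.125, the smallest that 4 pairs allow. Same-numbered samples correlated by -0.016 on average in their deviations, 0 of 8 samples correlated best with its own number, and the labels name no pairing. *Nrg2* and *Nrg4*, at 5 to 24 counts, are limited by depth.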
